A study of Mus musculus with 2 samples.

Results

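A set of 10 genes that act when a macrophage takes up a dead cell was followed in the immune cells of a mouse glioma: the receptors Axl, Mertk, Stab1, Timd4, Cd300lf and Msr1, the soluble bridging proteins Gas6, Pros1 and Mfge8, and the inhibitory receptor Sirpa. All 10 of 10 symbols were found, each in 1 row, among the 31053 genes of the count tables. Cells were the barcodes with at least 1000 unique molecular identifiers (UMIs, the counts of captured RNA molecules) and at most 17% mitochondrial UMIs, 10107 from wild type (WT) and 7604 from CD169-DTR mice. The members gave between 173 (Timd4) and 40814 (Sirpa) UMIs in the WT cells. In the GRCm38 annotation Mertk and Sirpa lie on chromosome 2, Axl and Mfge8 on 7, Gas6 and Msr1 on 8, Timd4 and Cd300lf on 11, Stab1 on 14 and Pros1 on 16.

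Both groups were male C57BL/6 mice of 8 to 12 weeks that received 100000 GL261 glioma cells into the brain and 40 ng/g of diphtheria toxin (DT) on days -1 and 4 relative to the injection. WT mice carried no DT receptor. CD169-DTR mice were heterozygous for an allele that places the human DT receptor in Siglec1, the gene of the sialic acid receptor CD169, so that cells with CD169 become sensitive to DT and 1 intact Siglec1 copy is left. At 10 days after injection the right hemispheres of 3 mice per group were pooled, live CD45.2+ cells were sorted, and 1 single-cell library of transcript 3′ ends was made per group. With 1 library per group no difference between the groups has a replicate check, so no p-value is given, and every interval below is a 95% interval that covers counting error only.

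Dying cells expose phosphatidylserine on their surface, and phagocytes read this lipid either directly, as Timd4, Stab1 and Cd300lf do, or through a bridge. Axl and Mertk, which with Tyro3 form the TAM family of receptor tyrosine kinases, are linked to phosphatidylserine by Gas6, and Mertk also by Pros1, while Mfge8 links the lipid to integrins. Msr1 is a class A scavenger receptor that binds modified lipoproteins and cell debris, while Sirpa binds CD47 on living cells and holds engulfment back. In tissue macrophages Mertk serves steady clearance, whereas Axl is induced by interferon and inflammation.

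The libraries held 101808996 (WT) and 84065489 (CD169-DTR) UMIs, with medians of 7776 and 8099.5 UMIs per cell, and 21 barcodes occurred in both, against 11.3 expected from independent draws. Clusters were named from marker genes, and the suffix "-like" that such names carry is left off: 4805 WT and 5444 CD169-DTR cells were microglia, 2278 and 735 macrophages, and 1186 and 245 dendritic cells (DCs). Depth differed between the libraries within classes. Median UMIs in WT and CD169-DTR cells were 7555 and 7800.5 in microglia, 7201.5 and 11768 in macrophages and 11333 and 14388 in DCs. Free RNA was estimated at 194 and 129 UMIs per droplet, and 7.86% of WT and 5.14% of CD169-DTR lymphocytes held more than 20 UMIs of microglial markers. The level of Siglec1 itself, as UMIs of the gene per 1000000 UMIs (CPM), was 37.6 in macrophages of the WT and 11.8 in those of the CD169-DTR library, 18.9 and 5.57 in microglia, and 7.70 and 3.47 in DCs. A Siglec1 UMI was still held by 93 of 735 CD169-DTR macrophages (12.7%). Fewer CD169+ cells and the lost Siglec1 copy cannot be told apart in these levels.

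Levels are the UMIs of a gene summed over the cells of a class in 1 library, as CPM, and the share of cells in which a gene was seen was counted once every cell had been thinned to 4500 UMIs, which left out shallower cells (702 WT and 634 CD169-DTR microglia, 672 and 80 macrophages, 125 and 14 DCs). Since the reads come from transcript ends, levels are compared within a gene and not between genes. T cells, which lack most of these receptors, give the background share of each gene, and the source of their UMIs was not tested. After thinning, 6.32% of WT T cells held an Axl UMI, 6.04% a Mertk UMI, 12.9% a Sirpa UMI and between 0 and 5.77% a UMI of the other members, with a median depth before thinning of 6494 UMIs in T cells, 7555 in microglia, 7201.5 in macrophages and 11333 in DCs.

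The UMIs of most members lay in microglia. In the WT library microglia held 87.9% of the Mertk, 84.1% of the Pros1, 79.3% of the Sirpa and 67.5% of the Gas6 UMIs. Of the UMIs of all genes, microglia held 43118566 of 94046611 in WT and 52205800 of 78008647 in CD169-DTR cells. They were 47.5% of WT and 71.6% of CD169-DTR cells, so these shares also move with the cell mix. Macrophages held 75.4% of the Msr1 and 48.4% of the Cd300lf UMIs, and DCs held 96.5% of the Timd4 UMIs. Mfge8 differed from the other members in that most of its WT UMIs lay outside the myeloid classes. Microglia held 18.3%, DCs 7.45% and macrophages 4.22% of them. Most of the rest were in endothelial cells, pericytes, choroid plexus cells and unnamed clusters. In the CD169-DTR library microglia held 26.1% of the Mfge8 UMIs, choroid plexus cells 20.8% and endothelial cells 19.2%. Endothelial cells (403 WT and 278 CD169-DTR), choroid plexus cells (164 and 186) and pericytes (54 and 34) do not as a rule carry CD45, so they were present in spite of the sort for CD45.2.

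**Figure D1:**
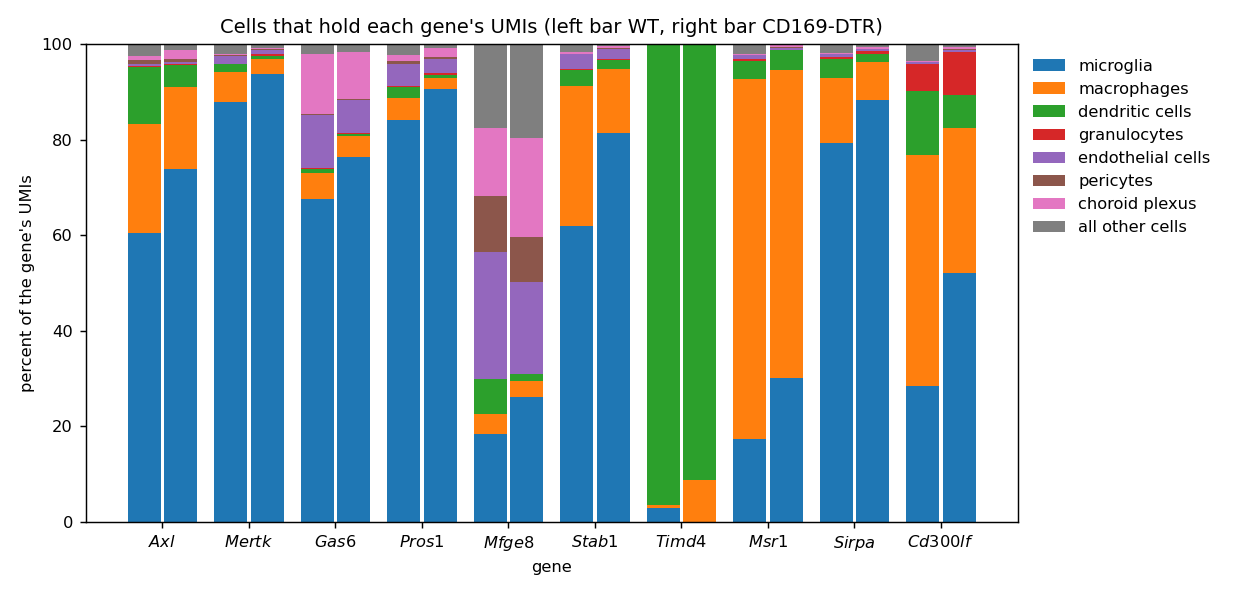
Stacked bars of the share of each member's UMIs (percent, vertical axis) by cell class, the left bar of a pair from the WT and the right from the CD169-DTR library. Microglia hold 87.9% of the WT Mertk UMIs and 93.6% of those in CD169-DTR cells, and DCs hold 96.5% and 91.3% of the Timd4 UMIs. Microglia are 47.5% of WT and 71.6% of CD169-DTR cells.

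Axl and Mertk, the TAM receptor kinases, were distributed differently over the classes. Axl stood at 187 CPM (183 to 192) in WT microglia, 166 (160.2 to 172) in WT macrophages and 113 (107 to 119) in WT DCs, and at 141, 176 and 125 CPM in the CD169-DTR classes. The highest Axl level was in pericytes, at 295 CPM from 105 UMIs in WT and 270.3 CPM from 61 UMIs in CD169-DTR cells. After thinning 41.0% of WT microglia, 43.0% of macrophages and 31.1% of DCs held an Axl UMI. Axl was thus found in all 3 myeloid classes at shares above that of T cells. Mertk stood at 232 CPM (228 to 237) in WT microglia, 38.1 (35.3 to 41.0) in macrophages and 13.5 (11.6 to 15.5) in DCs, and at 255, 48.4 and 18.1 CPM in CD169-DTR cells. A Mertk UMI was held by 62.5% of WT microglia and 11.7% of macrophages, while the 3.49% of WT DCs lay below the T cell share. In CD169-DTR cells 5.63% of DCs and 2.27% of T cells held one, so the order of DCs and T cells was opposite in the libraries. The order of Mertk levels, microglia over macrophages over DCs, was the same in both libraries with intervals that did not overlap.

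Gas6, the ligand of both kinases, and Pros1, a ligand of Mertk, followed Mertk within the myeloid cells and were also found outside them. Gas6 was at 159 CPM in WT and 178 in CD169-DTR microglia, at 29.9 and 54.8 in macrophages and at 5.86 and 12.5 in DCs. Choroid plexus cells (348 and 307 CPM) and endothelial cells (244 and 255 CPM) lay above microglia, and among endothelial cells the cluster led by Plvap reached 922 and 871 CPM. Pros1 was at 191 and 206 CPM in microglia, 24.9 and 27.0 in macrophages and 15.5 and 21.6 in DCs, with 163 and 186 in pericytes and 100.1 and 107 in endothelial cells. Gas6 was detected in 1.70% of WT DCs, below the 3.57% of T cells, and Pros1 in 5.56% against 4.12%. In the CD169-DTR library Gas6 was detected in 4.76% of DCs and 1.70% of T cells and Pros1 in 7.79% and 2.27%, so both lay above the T cell share there.

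Mfge8, the integrin bridge, had its highest levels in cells of the vessel wall in these libraries. WT pericytes held 1169 CPM (1059 to 1287) and CD169-DTR pericytes 1378 CPM (1229 to 1540), and every one of the 25 WT and 12 CD169-DTR pericytes left after thinning had a UMI. An unnamed cluster led by Acta2 and Tagln, genes of smooth muscle, was at 1366 and 1385 CPM, and the Plvap endothelial cluster at 954 and 754. Choroid plexus cells were at 140 and 175 CPM, microglia at 15.2 and 16.6 CPM and macrophages at 8.20 and 11.3 CPM. An Mfge8 UMI was held by 5.92% of WT microglia, 2.93% of macrophages and 4.15% of DCs beside 5.49% of T cells. In the CD169-DTR library the shares were 7.30%, 4.73% and 3.90% beside 4.55% of T cells. WT T cells were at 12.7 CPM of Mfge8, where free RNA alone would give 0.397 CPM. The source of the Mfge8 UMIs in T cells and in the myeloid classes was not tested.

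The direct phosphatidylserine receptors differed from each other. Stab1, stabilin-1, was at 135 CPM in WT microglia and 151 in WT macrophages and at 149 and 132 in the CD169-DTR classes, so that the order of microglia and macrophages was opposite in the 2 libraries. DCs were lower, at 21.5 and 45.1 CPM. Cd300lf, an inhibitory receptor of the CD300 family, was highest in granulocytes (755 CPM in WT, 525 in CD169-DTR), followed by macrophages (242 and 162), DCs (87.9 and 96.9) and microglia (60.8 and 52.0). Granulocytes were shallow, with 29 and 52 cells left after thinning, of which 75.9% and 71.2% held a Cd300lf UMI.

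Timd4, known from resident macrophages of other tissues, was nearly absent from macrophages here, with 1 UMI in 2278 WT and 2 UMIs in 735 CD169-DTR cells. DCs held 167 of 173 WT and 21 of 23 CD169-DTR Timd4 UMIs, at 11.8 CPM (10.1 to 13.7) and 5.60 CPM (3.47 to 8.57). These came from few cells. A Timd4 UMI was seen in 48 of 1186 WT DCs (4.05%, 3.00 to 5.33%) and 7 of 245 CD169-DTR DCs (2.86%, 1.16 to 5.80%), and 26 WT DCs with 3 or more UMIs held 139 of the 167. No T cell held a Timd4 UMI in either library.

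Msr1, the scavenger receptor, had the highest ratio of macrophages over microglia among the members, with 109 CPM (104 to 114) in macrophages of WT and 93.5 CPM (87.5 to 99.7) in those of CD169-DTR mice against 10.7 and 8.14 in microglia and 7.06 and 16.3 in DCs. An Msr1 UMI was held by 32.9% of WT macrophages, 3.05% of WT microglia and 2.64% of WT DCs, beside 3.02% of WT T cells. In the CD169-DTR library 1.56% of microglia, 5.19% of DCs and 0.568% of T cells held one. By level Msr1 was at 10.7 CPM (9.74 to 11.7) in WT microglia and 6.10 (3.95 to 9.01) in WT T cells. Free RNA alone would give 0.603 CPM in WT microglia and 0.628 in WT T cells, so this estimate was below the T cell level too. Sirpa, the brake on engulfment, was at 751 and 746 CPM in microglia, where 93.6% and 92.4% of cells held a UMI. It was at 299 and 357 CPM in macrophages, 307 and 341 in granulocytes and 115 and 187 in DCs. Sirpa was thus seen in most microglia and most macrophages (63.9% and 73.3%).

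**Figure D2:**
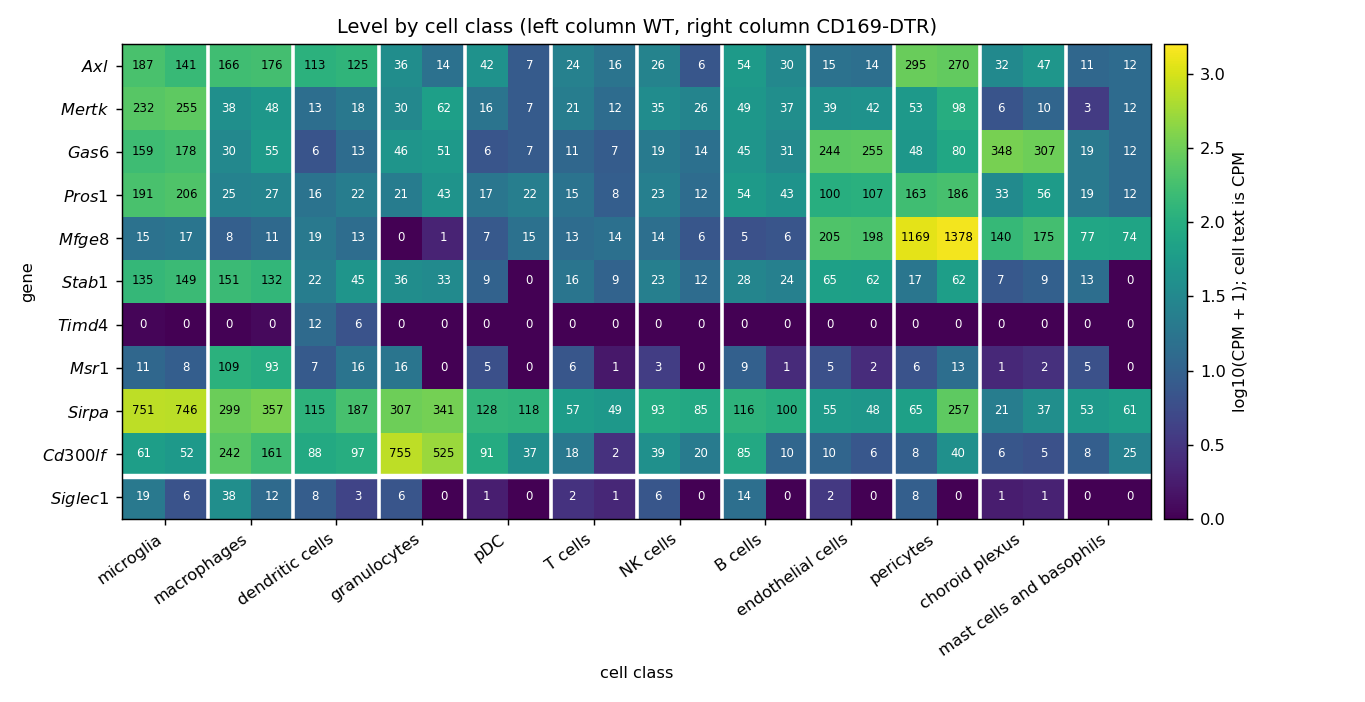
Heat map of the level of each member and of Siglec1 (rows) by cell class (columns, WT left and CD169-DTR right in each pair), coloured by log10(CPM + 1), with the CPM written in each field as a whole number. Mertk lies between 232 CPM in WT microglia and 13.5 in WT DCs, while Axl lies at 187 and 113 CPM in the same classes.

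Setting WT macrophages against WT microglia gave 6 of 9 members past a 2-fold difference, where 38.4% of all 13195 genes compared were past it. A gene was compared when both sides together held at least 20 UMIs and each held at least 1, which Timd4 did not reach. Msr1 (log2 ratio 3.35, 3.2 to 3.5) and Cd300lf (2.00, 1.93 to 2.07) were higher in macrophages. Pros1 (-2.94), Mertk (-2.61), Gas6 (-2.41) and Sirpa (-1.33) were lower. The median log2 ratio was -0.89 over the members and -0.36 over all genes. The 3 not past 2-fold were Mfge8 (-0.89), Axl (-0.17) and Stab1 (0.16). The same 6 members were past 2-fold in the CD169-DTR library (34.7% of all genes), with Gas6 at -1.70 and Cd300lf at 1.63.

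Microglial marker genes, summed over 10 genes, stood in WT macrophages at 9.88% of their level in microglia (11.1% in CD169-DTR cells). Against that, Pros1 in WT macrophages stood at 13.1%, Mertk at 16.4%, Gas6 at 18.8% and Sirpa at 39.8% of its microglial level. When macrophages with a P2ry12 or Cd3e UMI were left out, the log2 ratio of Mertk was -3.37, that of Gas6 -3.15 and that of Pros1 -3.76. How much of the Mertk, Gas6 and Pros1 of macrophages came from microglial RNA was not tested.

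Of a list of 67 other genes of dead-cell clearance 66 were found and 57 compared, with 18 past 2-fold higher and 12 lower in WT macrophages than in WT microglia. Among all 13195 genes 1561 were past 2-fold higher and 3509 lower (38.4% in all). The 5 highest were Cd93 (log2 ratio 6.06), a receptor tied to C1q uptake, Anxa1 (5.94), a phosphatidylserine-binding annexin, the lipid-sensing nuclear receptors Pparg (5.58) and Nr1h3 (5.12), and Gpr132 (4.74), a receptor for lysophospholipids. The 5 lowest were the integrin Itgb3 (-2.98), the complement genes C1qa (-2.93) and C1qc (-2.74), the fractalkine receptor Cx3cr1 (-2.66), itself a microglial marker, and the lipid receptor Trem2 (-2.31).

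The members also varied between the states within a class. Microglia fell into 9 clusters, here called by leading genes: a cluster led by Sox4 and Slc2a5 (1107 WT and 1505 CD169-DTR cells), 1 led by Atp8a2 and Cst3, 1 by C4b and Lpl, 1 by the interferon genes Iigp1 and Rsad2, 1 by the early-response genes Il1b and Atf3, 1 by Spp1 and Igf1, 1 by the S phase genes Dtl and Uhrf1, and 2 mitotic clusters led by Prc1 and by Ccnb2. Mertk was highest in the Sox4 cluster, at 394 CPM in WT and 416 in CD169-DTR cells, followed by the Atp8a2 cluster (310.1 and 339.8), and lowest in the mitotic Ccnb2 cluster (103 and 112). Axl had the opposite order in part, since the mitotic cluster lowest for Mertk was not the highest for Axl. Axl was at 17.7 and 14.5 CPM in the Sox4 cluster and 94.3 and 85.3 in the Atp8a2 cluster, and highest in the interferon cluster at 330.5 and 278. In the Spp1 cluster Axl was at 260.2 and 229.6 CPM and Mertk at 144 and 125.

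The promoters of Axl and Mertk are shown because these receptors ran against each other over the microglial states, and that of Cd300lf because it ran with Axl. Of the 10 members 8 had an entry in the RefSeq promoter table (GRCm38.p6), each from 250 bases before to 50 bases after the start. Axl lies at chr7:25788684-25788983 on the minus strand, Mertk at chr2:128698665-128698964 on the plus strand and Cd300lf at chr11:115133943-115134242 on the minus strand, all written 5′ to 3′ in the direction of transcription. Capitals mark a GC box (CCGCCC on either strand) in Axl and Mertk and a PU.1-type site (GAGGAAGT on either strand) in Cd300lf, and no match overlapped another of a different motif.
Axl: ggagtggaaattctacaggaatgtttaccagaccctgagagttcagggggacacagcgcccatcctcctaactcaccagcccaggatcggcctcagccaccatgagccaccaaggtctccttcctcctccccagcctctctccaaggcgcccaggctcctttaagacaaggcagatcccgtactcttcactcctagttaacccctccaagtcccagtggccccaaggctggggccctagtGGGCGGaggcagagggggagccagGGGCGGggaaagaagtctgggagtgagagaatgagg
Mertk: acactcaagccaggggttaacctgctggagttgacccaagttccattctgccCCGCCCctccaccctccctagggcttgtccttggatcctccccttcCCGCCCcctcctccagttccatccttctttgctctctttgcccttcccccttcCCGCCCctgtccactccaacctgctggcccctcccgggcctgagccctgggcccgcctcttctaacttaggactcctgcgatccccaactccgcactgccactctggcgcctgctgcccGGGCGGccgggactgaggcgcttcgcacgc
Cd300lf: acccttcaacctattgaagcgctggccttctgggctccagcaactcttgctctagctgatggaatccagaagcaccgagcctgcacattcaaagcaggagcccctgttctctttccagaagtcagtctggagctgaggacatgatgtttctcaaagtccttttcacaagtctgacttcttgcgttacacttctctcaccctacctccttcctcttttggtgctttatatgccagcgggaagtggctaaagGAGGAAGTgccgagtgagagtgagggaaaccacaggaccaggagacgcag

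Axl held 2 GC boxes, the first bases at -10 and 15, and Mertk 4, at -198, -152, -99 and 21, counted from the start as 1. A GC box was found in 5 of the 8 member promoters (Mertk, Axl, Mfge8, Gas6 and Pros1) and in 35.7% of all 32851 promoters. The PU.1-type site was found in Cd300lf alone among the members, beginning at base 1, and in 3.2% of all promoters. An interferon-stimulated response element (GAAA, any 2 bases, GAAA, on either strand) was found in 0 of 8 member promoters, in 3.44% of all promoters and in 4 of the 7 interferon marker genes (Ifit1, Ifit3, Isg15 and Rsad2). These are matches of letters in a short window and describe the sequence only.

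Over the 9 microglial states the log2 levels of Axl and Mertk had a Pearson r of -0.73 in WT and -0.71 in CD169-DTR cells, as a description, since the states share a library and were formed from the same cells. Axl ran with the summed interferon markers (r 0.88 and 0.86), with Siglec1 (0.85 and 0.81) and with Cd300lf (0.93 and 0.92). Mertk ran with Sirpa (0.90 and 0.92), while its r was 0.49 and 0.12 with Gas6 and 0.56 and 0.37 with Pros1. With the summed mitotic markers the r of Mertk was -0.74 and -0.72. Over all 25 clusters of at least 50 cells, Axl and Mertk had an r of 0.41 and Mertk and Pros1 had 0.85.

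**Figure D3:**
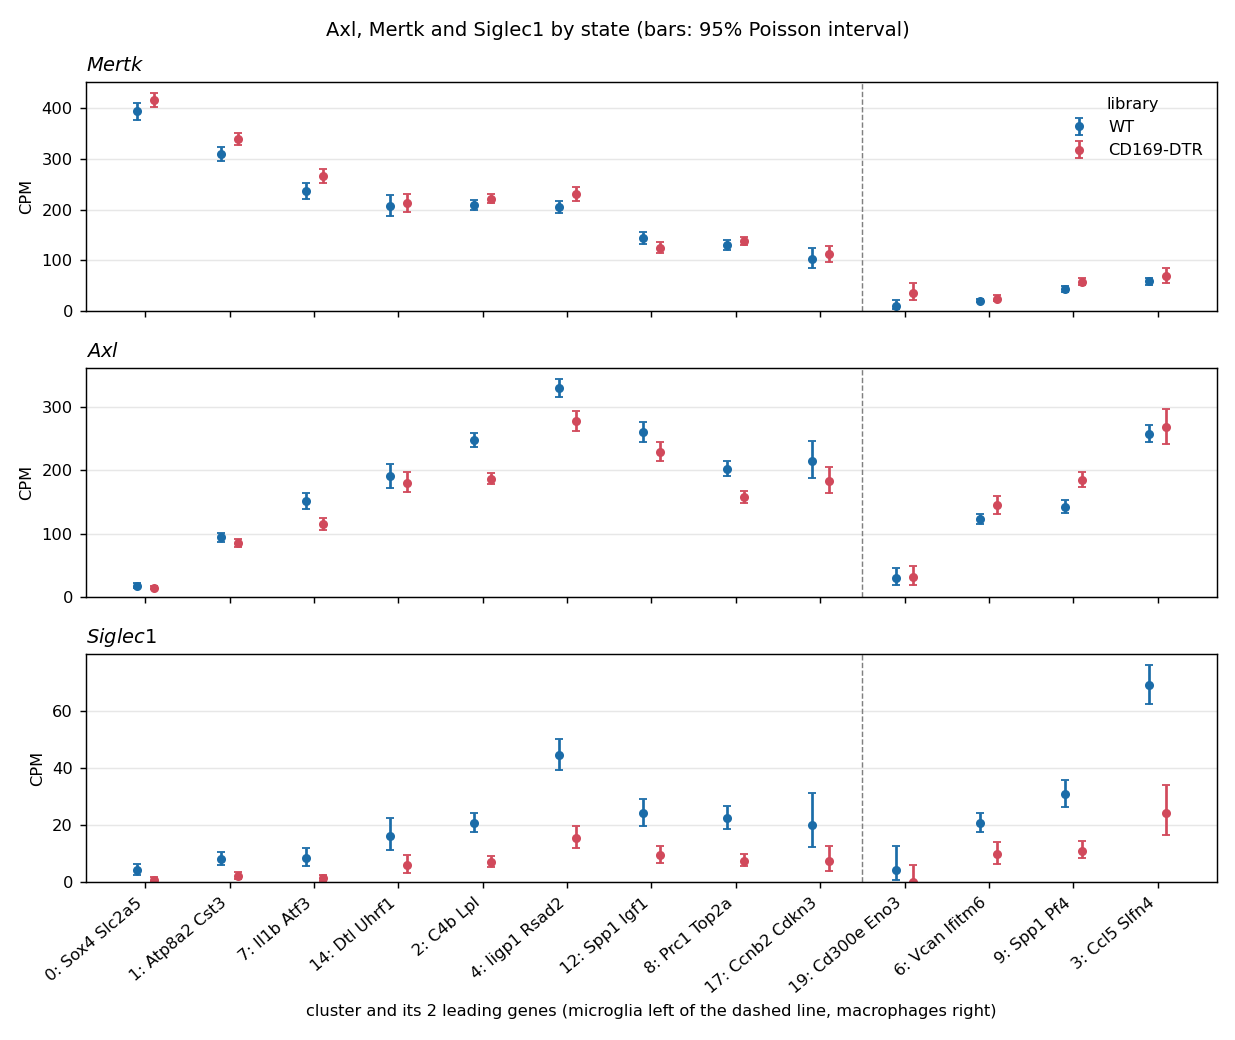
Levels of Mertk, Axl and Siglec1 (CPM, with 95% Poisson intervals) in the clusters of microglia (left of the dashed line) and macrophages (right), in WT and CD169-DTR cells. In microglia Axl is lowest (17.7 CPM in WT) where Mertk is highest (394 CPM), in the cluster led by Sox4.

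Single microglia mostly held 1 of the pair or both. Of 4103 thinned WT microglia 738 held Axl only, 1620 Mertk only, 945 both and 800 neither, so 80.5% held either (79.1% in CD169-DTR). A Mertk UMI was found in 56.1% of the WT microglia with Axl and in 66.9% of those without. In the Sox4 cluster 537 of 705 cells held Mertk only and 11 Axl only. Within 7 of 9 WT states the shares with Mertk of cells with and without Axl lay closer together, as with 58.4% and 59.8% in the interferon cluster. The exceptions were the S phase cluster (52.0% and 67.6%) and the mitotic Ccnb2 cluster (26.5% and 45.2%). Among WT macrophages 594 of 1606 held Axl only, 92 Mertk only and 96 both, which gave 48.7% with either (50.7% in CD169-DTR).

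The other members followed 1 of these orders or neither over the microglial states. Sirpa was highest in the Sox4 cluster (1074 and 1111 CPM) and lowest in a mitotic cluster (472 in Prc1 cells of WT, 419 in Ccnb2 cells of CD169-DTR). Pros1 was highest in the Sox4 cluster too (275 and 268) and lowest in the Il1b cluster (98.9 and 98.5). Cd300lf was lowest in the Sox4 cluster (9.84 and 10.4) and was at 115 and 95.4 in the interferon cluster and 110.4 and 115 in the Spp1 cluster. The Spp1 cluster, led by genes of lipid-laden and disease-associated microglia, was also highest for Gas6 (265 and 279.7 CPM) and for Msr1 (49.9 and 45.4 CPM), where no other microglial cluster passed 22.6 CPM of Msr1. An Msr1 UMI was held by 16.3% and 7.34% of its cells, above the T cell shares of 3.02% and 0.568%. Stab1 was high in the Spp1 (206 and 172) and in the Sox4 cluster (203 and 213).

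Macrophages fell into 4 clusters: 1 led by Ccl5 and Slfn4, 1 led by Vcan and Ifitm6 with monocyte markers (both with all 7 interferon markers), 1 led by Spp1 and Pf4, and 1 led by Cd300e and Eno3. The Ccl5 cluster was highest for Axl (258 and 268 CPM), Mertk (58.5 and 68.8) and Cd300lf (382 and 296). Stab1 was at 201 and 189 CPM there and at 201 and 152 in the Spp1 cluster, which was highest for Gas6 (59.8 and 75.7). The Spp1 cluster passed 7 of 10 border-associated macrophage markers and 4 of 12 macrophage markers, and Lyve1, which marks some of those cells, was at 0 in all macrophages. The Cd300e cluster, with genes of patrolling monocytes, was lowest for Axl (29.3 and 31.1), Stab1 (10.2 and 31.1), Msr1 (24.9 and 29.5) and Cd300lf (62.9 and 62.3). Msr1 was at 108, 116 and 111 CPM in the 3 larger WT clusters.

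DCs fell into a cluster led by Clec10a and Cd209a, the Xcr1 cluster of cross-presenting DCs and the Fscn1 and Ccr7 cluster of migratory DCs. Axl was at 146 and 151 CPM in the Clec10a cluster, 27.7 and 20.9 in the Xcr1 cluster and 89.9 and 104 in the Fscn1 cluster. Sirpa, which marks DCs other than the Xcr1 kind, was at 151 and 223, 28.3 and 61.1, and 75.2 and 100.1 CPM in the same order. Cd300lf was at 120.2 and 118 CPM in the Clec10a cluster and 26.7 and 38.7 in the Xcr1 cluster. Mfge8 reached 88.6 CPM in the WT Fscn1 cluster, but 1 cell held 66 of its UMIs and the level was 46.8 without it. The CD169-DTR Xcr1 and Fscn1 clusters had 32 and 14 cells.

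Siglec1 detection was then linked to the members in WT macrophages, the cells the study follows. A Siglec1 UMI was held by 521 of 2278 WT macrophages (22.9%, or 13.6% after thinning) and by 1.47% of WT T cells (1.10% after thinning). The split used all UMIs of a cell, and cells without a UMI include cells whose Siglec1 RNA was missed. After thinning, 383 cells with and 1223 without a Siglec1 UMI were compared, and 0 of 9 members were past 2-fold, against 4.68% of all genes, with a median log2 ratio of 0.20 over the members and 0.03 over all genes. Gas6 was at 36.6 CPM with and 24.2 without (log2 ratio 0.60, 0.14 to 1.04), and Cd300lf at 281 and 238 (0.24, 0.09 to 0.39). The other 7 had intervals that included 0: Mertk 0.38, Mfge8 0.37, Stab1 0.20, Msr1 0.12, Axl 0.09, Sirpa 0.05 and Pros1 0.03. In CD169-DTR macrophages 1 of 9 members was past 2-fold, against 10.6% of all genes, with medians of 0.46 and -0.05. It was Mfge8 (1.04, -0.31 to 2.24), with 8 UMIs in the cells with Siglec1. Axl (0.48, 0.13 to 0.82), Cd300lf (0.46, 0.12 to 0.78) and Msr1 (0.50, 0.01 to 0.96) had intervals above 0.

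Macrophage states and microglial RNA moved with this split. After thinning the share with a Siglec1 UMI was 21.9% in the Ccl5 cluster, 14.6% in the Spp1 cluster, 8.03% in the Vcan cluster and 1.35% in the Cd300e cluster (28.6%, 24.9%, 16.3% and 1.77% before). Thinning fell most on the shallow Ccl5 cluster (median 4327 UMIs), leaving 168 of 296 cells with and 326 of 739 without a Siglec1 UMI. It left 107 of 110 and 528 of 566 in the Vcan cluster and 107 of 113 and 296 of 341 in the Spp1 cluster. With equal weight per state the log2 ratio of Axl was -0.15, that of Stab1 -0.03, that of Sirpa -0.04 and that of Cd300lf 0.06. The summed microglial markers were at 2364 CPM with and 1570 without Siglec1, higher for 10 of 10 genes, and the interferon markers at 9791 and 7834. Their part in the Gas6 and Mertk values was not tested. Of the 54 other clearance genes compared, 0 were past 2-fold (4.68% of all genes), and in CD169-DTR macrophages 5 of 51 were, all lower in cells with Siglec1 (10.6% of all genes, 695 lower and 166 higher).

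In WT microglia a Siglec1 UMI was held by 624 of 4805 cells (13%, or 7.38% after thinning), and 1 of 9 members was past 2-fold between 599 cells with and 3504 without, against 5.99% of all genes, with medians of -0.12 and -0.07. Msr1 was at 16.3 CPM with and 6.22 without (log2 ratio 1.39, 0.85 to 1.92), from 44 and 98 UMIs, and over all WT microglia its share of cells was that of T cells. Axl was at 266 and 150 CPM (0.83, 0.70 to 0.95) and Cd300lf at 87.6 and 50.9 (0.78, 0.57 to 0.99). Mertk and Sirpa lay on the other side: Mertk was at 208 and 265 CPM (-0.35, -0.48 to -0.22) and Sirpa at 645 and 814.5 (-0.34, -0.41 to -0.26). Pros1 was at -0.26 (-0.41 to -0.12), and the intervals of Mfge8, Gas6 and Stab1 included 0. CD169-DTR microglia, with 234 cells with and 4576 without, had log2 ratios of 0.94 for Axl, 0.84 for Cd300lf, 2.31 for Msr1 (18 UMIs in the cells with Siglec1), -0.43 for Mertk and -0.50 for Sirpa.

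**Figure D4:**
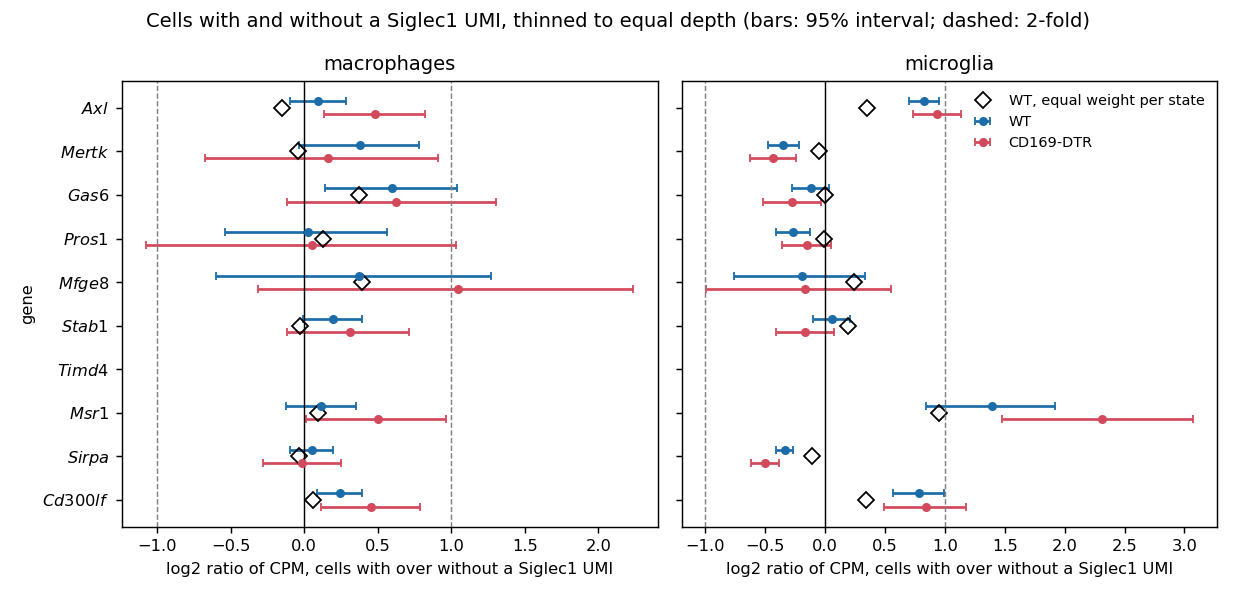
Log2 ratio of each member's level in cells with over cells without a Siglec1 UMI, with 95% intervals that cover counting error only, in macrophages and microglia of each library (open diamonds, WT with equal weight per state and dashed lines, 2-fold). In WT microglia Msr1 (1.39), Axl (0.83) and Cd300lf (0.78) lie above 0 and Mertk (-0.35) and Sirpa (-0.34) below it.

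The microglial split followed the states in part. After thinning a Siglec1 UMI was held by 17.4% of WT microglia of the interferon cluster, 10.6% of the Spp1 cluster, 9.84% of the mitotic Prc1 cluster and 1.84% of the Sox4 cluster (27.3%, 26.5%, 24.1% and 1.90% before). The Sox4 share was near the 1.10% of T cells. With equal weight per state the log2 ratios were 0.95 for Msr1, 0.35 for Axl, 0.34 for Cd300lf, -0.05 for Mertk and -0.11 for Sirpa, so the value of each of these 5 was smaller in size. Within the interferon cluster Axl was higher in cells with Siglec1 (0.47, 0.26 to 0.68), and within the C4b cluster Axl was at 251 CPM with and 252 without (-0.27 to 0.25). Interferon markers were at 3783 CPM with and 1915 without Siglec1, microglial markers at 16954 and 24070, and the median depth before thinning was 10929.5 and 7164 UMIs. Macrophage markers were at 1337 CPM with and 958 without Siglec1, higher with Siglec1 for 12 of 12 genes. The part of macrophage RNA in the Msr1 and Cd300lf values was not tested. Among the other clearance genes Acp5 (1.94), Lilrb4a (1.42), Cd24a (1.41) and Lgals3 (1.25) were past 2-fold higher and Nr1h3 (-1.84, 1 UMI in the cells with Siglec1) lower, 5 of 53 beside 5.99% of all genes.

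In WT DCs, with 79 cells with and 982 without a Siglec1 UMI after thinning, 4 of 9 members were past 2-fold, 3 higher and 1 lower, against 14.6% of all genes, with medians of 0.91 and 0.02. Stab1 was at 70.3 and 17.4 CPM (log2 ratio 2.01), Cd300lf at 191 and 91.2 (1.07), Axl at 205 and 109 (0.91) and Mertk at 22.5 and 8.15 (1.47, 8 UMIs in the cells with Siglec1). Gas6 was at 2.81 and 5.66 CPM (-1.01, -6.37 to 1.60), with 1 UMI in the cells with Siglec1, and Mfge8 at 14.1 and 20.1 (-0.52, -2.18 to 0.76). Macrophage markers were at 10267 CPM with and 6495 without, and microglial markers at 1986 and 1045. The part of such RNA in the DC values was not tested.

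WT and CD169-DTR macrophages, the comparison of tumours with and without removal of CD169+ cells, differed by less than 2-fold in each of the 9 members compared (0 of 9, against 5.3% of all 11758 genes, with medians of -0.11 and -0.05). Cd300lf was higher in WT (242 and 162 CPM, log2 ratio 0.59, 0.50 to 0.67), as were Msr1 (0.22, 0.11 to 0.33) and Stab1 (0.20, 0.10 to 0.29). Gas6 was lower in WT (29.9 and 54.8 CPM, -0.88, -1.05 to -0.70), as were Mfge8 (-0.47), Mertk (-0.35, -0.52 to -0.17) and Sirpa (-0.26, -0.32 to -0.20). Pros1 (-0.11) and Axl (-0.08) had intervals that reached 0. Without the cells with the highest doublet scores Gas6 was at -1.16, past 2-fold.

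The macrophage states held different shares of the class in the 2 libraries. The interferon cluster led by Ccl5 held 45.4% of WT and 22.2% of CD169-DTR macrophages, and the Spp1 cluster 19.9% and 35.8%. Cd300lf was higher in WT in 4 of 4 states (log2 ratio 0.01 to 0.50), and Axl, Mertk and Pros1 were lower in 4 of 4 (Axl -0.38 to -0.06). Stab1 was higher in WT in 2 and lower in 2 of 4 states (-1.60 to 0.40), and Msr1 higher in 3 of 4. Gas6 was at 11.2 CPM in the WT and 36.5 in the CD169-DTR Vcan cluster, where 27 of 213 CD169-DTR cells held it and 1 cell held 22 UMIs (29.0 without that cell), and at a log2 ratio of 0.13 in the Ccl5 cluster. Interferon markers were at 7700 CPM in WT and 2652 in CD169-DTR macrophages and microglial markers at 2097 and 2460. The border-associated markers were at 979 and 1308, with 0 of 10 genes higher in WT and Lyve1 at 0 in both. Their part in the member values was not tested.

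Of 57 other clearance genes compared, 5 were past 2-fold between the macrophages, beside 5.3% of all genes. Siglecg (1.77), an inhibitory receptor for CD24, and Scarf1 (1.29), a C1q-binding scavenger receptor, were higher in WT. Apoe (-1.04), the lipid carrier, and the scavenger receptors Cd163 (-2.30) and Colec12 (-2.41) were lower in WT, the last pair on 8 and 6 WT UMIs.

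**Figure D5:**
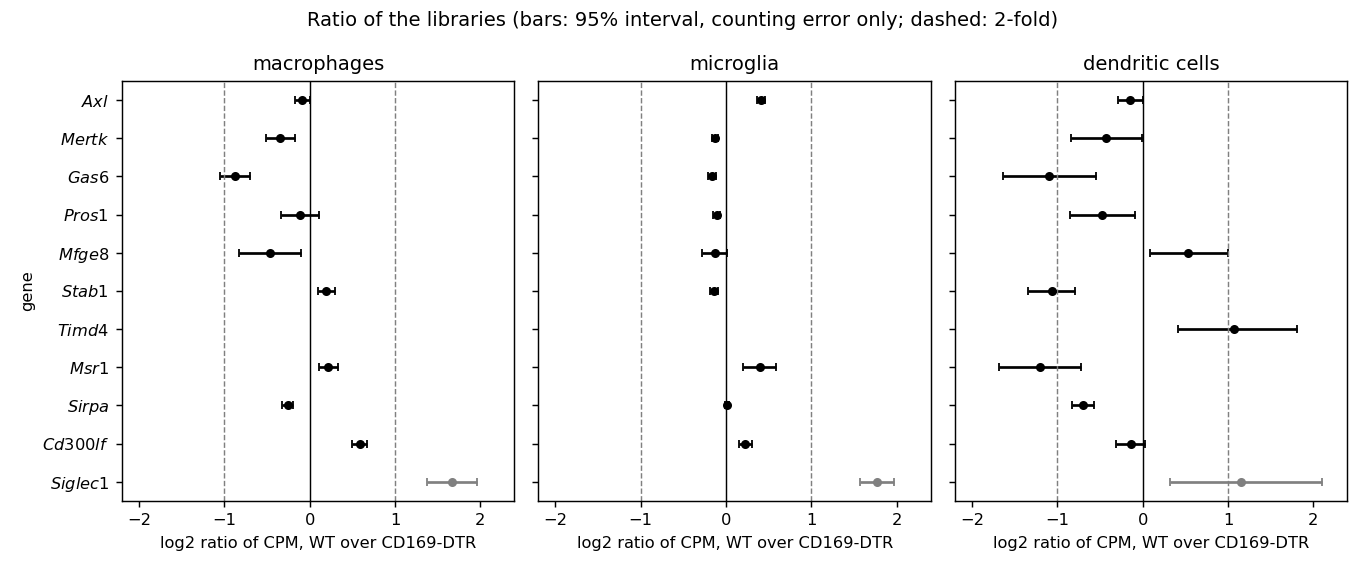
Log2 ratio of each member's level in WT over CD169-DTR cells, with 95% intervals that cover counting error only, in macrophages, microglia and DCs, with Siglec1 in grey and 2-fold dashed. Values of members lie between -0.88 (Gas6) and 0.59 (Cd300lf) in macrophages and between -0.16 (Gas6) and 0.41 (Axl) in microglia.

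In microglia 0 of 9 members were past 2-fold, against 2.89% of all genes, with medians of -0.11 and -0.04. Axl was the member furthest from 0, higher in WT (187 and 141 CPM, log2 ratio 0.41, 0.36 to 0.45). It was higher in WT in 9 of 9 states, by 0.08 to 0.41, and at 0.26 with equal weight per state. Msr1 (0.39, 0.20 to 0.59), seen in 3.05% of WT microglia and 3.02% of WT T cells, and Cd300lf (0.22, 0.15 to 0.30) were also higher in WT over the class. With equal weight per state they were at 0.13 and 0.07, and they were higher in WT in 6 and 5 of 9 states. Gas6 (-0.16), Stab1 (-0.14), Mertk (-0.13) and Pros1 (-0.11) were lower with intervals below 0, Mertk in 8 of 9 states, and Sirpa was at 0.01 (-0.01 to 0.03). Interferon markers were at 2341 CPM in WT and 1489 in CD169-DTR microglia, higher for 7 of 7 genes, and their part in the Axl value was not tested. Summed macrophage markers were at 1171 and 943 CPM, with 10 of 12 genes higher in WT. Border-associated markers were at 81.5 and 34.9 CPM, with 8 of 10 genes higher in WT. The part of RNA from those cells in the microglial values was not tested. Among 57 other clearance genes Acp5 (1.42), Gpr132 (1.16) and Lgals3 (1.03) were past 2-fold, all higher in WT (2.89% of all genes).

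In DCs 4 of 10 members were past 2-fold, against 6.54% of all genes, with medians of -0.45 and -0.02. Msr1 (7.06 and 16.3 CPM, log2 ratio -1.20, -1.68 to -0.72), Gas6 (5.86 and 12.5, -1.10, -1.63 to -0.55) and Stab1 (21.5 and 45.1, -1.07, -1.34 to -0.79) were lower in WT and Timd4 (11.8 and 5.60, 1.07, 0.41 to 1.80) was higher. In WT DCs the shares with Msr1 (2.64%) and Gas6 (1.70%) were below those of T cells, while in CD169-DTR DCs they were 5.19% and 4.76% beside 0.568% and 1.70% of T cells. Sirpa was at 115 and 187 CPM (-0.70, -0.83 to -0.57) and lower in WT in 3 of 3 states. Microglial markers were at 1370 CPM in WT and 2018 in CD169-DTR DCs, with 0 of 10 genes higher in WT. Summed macrophage markers were at 6255 and 6001 CPM, with 4 of 12 genes higher in WT and a median log2 ratio of -0.71. Border-associated markers were at 265 and 545 CPM, with 3 of 10 genes higher in WT and a median of -0.68. The part of RNA from those cells was not tested.

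The Timd4 difference lay in the Clec10a cluster, where Timd4 was at 12.2 CPM in WT (28 cells with a UMI) and 1.76 in CD169-DTR cells (3 cells). In the Xcr1 cluster it was at 7.86 and 19.4 CPM, 10 of the CD169-DTR UMIs being in 1 cell, and 4.62 CPM without that cell. The Fscn1 cluster held the highest WT level, 17.2 CPM (27 UMIs in 11 cells), beside 13.1 CPM in CD169-DTR cells (3 UMIs in 2 cells). The count of 4 members was 1 with equal weight per cell, 2 with equal weight per state, and 0 when the libraries were merged without integration. Of 55 other clearance genes compared, beside 6.54% of all genes past 2-fold, the 5 past it were all lower in WT: Cd14 (-1.51), Apoe (-1.44), C1qb (-1.15), C1qa (-1.09) and C1qc (-1.03), genes that macrophages and microglia also express.

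Sirpa and Mertk lie 1.44 and 2.27 Mb from Siglec1 on chromosome 2, the modified locus. Of the genes within 5 Mb of Siglec1, 6 of 87 in macrophages, 3 of 92 in microglia and 6 of 81 in DCs were past 2-fold between the libraries. Over all genes compared the shares were 5.3%, 2.89% and 6.54%. Genes near Siglec1 without a UMI in 1 library could be counted here, unlike in the shares over all genes. Neither Sirpa nor Mertk was past 2-fold in any of the 3 classes.

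The genes most like each member over the 25 clusters, by Pearson r of log2(CPM + 10), were Washc5 (0.82) for Axl, Ints6l (0.97) for Mertk, Tspan4 (0.90) for Gas6, Cd81 (0.97) for Pros1, P4ha2 (0.95) for Mfge8 and Tmem104 (0.93) for Stab1. For Timd4 it was Wnt11 (0.96), followed by the chemokine gene Ccl17 (0.93), for Msr1 Tfec (0.88), for Sirpa Fcgr3 (0.97), followed by the receptor gene Csf1r (0.96), and for Cd300lf Gm49339 (0.89). Among the next were Slc35f6 and Lgals3bp for Axl, Nuak1 for Mertk, Cgrrf1 for Gas6, Sparc and Sgce for Pros1, Lurap1l and Cald1 for Mfge8, and Rin2 and Lhfpl2 for Stab1. They were Kctd14 after Ccl17 for Timd4, Hgf and Ms4a7 for Msr1, Itgam after Csf1r for Sirpa, and Rnf149 and C3 for Cd300lf. The Axl match was the weakest of the 10 by r.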

How the data were processed

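Single-cell 3′ RNA-seq libraries of sorted CD45.2+ cells, 1 WT and 1 CD169-DTR, each pooled from 3 mice, were analysed from the deposited tables of raw UMI counts per gene and barcode, which the authors made with Cell Ranger 3.1.0 on mm10 per the file headers and the submitters' processing notes. The tables list every barcode, so cells were kept at 1000 or more UMIs and at most 17% mitochondrial UMIs. Cells were integrated and clustered with Seurat 5.3.0 (50 dimensions and 2000 variable features without the members, Siglec1 and the clearance list, then 30 dimensions, resolution 1), and clusters were named from marker lists. The thresholds of naming were set after the data were seen, and the members and lists were chosen with earlier results of these data known. Doublets were not removed, and an alternative left out the 5% of cells per library with the highest Scrublet scores.

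UMIs were summed per class and library and scaled to CPM, with exact Poisson intervals. Shares were taken after thinning to 4500 UMIs, with Clopper-Pearson intervals, and log2 ratios have exact conditional intervals. Past 2-fold means a log2 ratio of at least 1 in size with 20 or more UMIs in both sides together and at least 1 in each. These intervals cover counting error only, and 3 pooled mice in 1 library give no replicates, so no test between groups was made. Cells split by Siglec1 were split before thinning. The named genes were the 10 members, Siglec1, clearance genes past 2-fold (at most the 5 highest and 5 lowest per comparison), the 3 genes most like each member and the leading genes of states. The ratio calculation was tested on simulated data. The 17 alternatives covered cell filters, doublets, free RNA, scaling, weights, clustering, classes, thinning and the Siglec1 split. Some genes that the rule for named genes reached are not reported here.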

Additional observations from a re-analysis of the deposited data

Results flagged for a closer look

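The log2 ratios of WT over CD169-DTR of 3 members had intervals on opposite sides of 0 in 2 myeloid classes. None of these differences between classes was itself tested, since there is 1 library per group. Mfge8 was at -0.47 in macrophages and 0.53 in DCs, where 66 of 139 UMIs of the WT Fscn1 cluster were in 1 cell. Without that cell the DC value was 0.12, and in the Clec10a cluster, the 1 DC state in which Mfge8 was compared, it was -0.37 (12.2 and 15.8 CPM). The share of WT macrophages and DCs with an Mfge8 UMI was below that of T cells. Stab1 was at 0.20 in macrophages, -0.14 in microglia and -1.07 in DCs, and it was higher in WT in 2 and lower in 2 of the 4 macrophage states. Msr1 was at 0.22 in macrophages, 0.39 in microglia and -1.20 in DCs, where macrophage and microglial markers were higher in WT for 4 of 12 and 0 of 10 genes.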

How the results depend on the processing

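Over 17 alternatives, 711 of 748 member log2 ratios kept their sign, 37 had the other sign (of these the reported value furthest from 0 was Mertk in DCs of WT over CD169-DTR, -0.43, which was 0.83 with the libraries merged without integration), 25 crossed the 2-fold line and 639 stayed within the original interval. Members past 2-fold were 6 in macrophages over microglia and 0 in microglia of WT over CD169-DTR, within 1.5 times under each alternative run. In macrophages of WT over CD169-DTR the count was 0 and became 1 without the highest doublet scores. In DCs it was 4 and became 1 with equal weight per cell, 2 with equal weight per state, 2 with the members among the variable features and 0 with the libraries merged without integration. For WT macrophages with over without Siglec1 it was 0 and became 1 without cells with a Cd3e or P2ry12 UMI (Pros1) and 1 with at least 2 Siglec1 UMIs (Mertk). For WT microglia it was 1 and became 0 with equal weight per state, 2 with the members among the variable features and 4 with at least 2 Siglec1 UMIs. The cause of these moves was not tested. Equal weight per state was not run for macrophages over microglia, which share no state. No paired analysis was possible because each group has 1 library, and no library could be left out. Levels without the single cell with most UMIs were an alternative chosen after seeing the data. Sparse members (Timd4, Mfge8 and Msr1 outside macrophages) are limited by depth and by single cells.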

Other observations

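In the lymphocyte classes, which serve as background, the members compared were at higher levels in the WT than in the CD169-DTR library in 8 of 9 cases in T cells, 8 of 8 in NK cells and 7 of 7 in B cells, beside 59.8%, 49.3% and 47.2% of all genes compared. Summed macrophage markers were also higher in WT, at 2283 and 1215 CPM in T cells, 2083 and 850 in NK cells and 4614 and 1119 in B cells, and their part in these counts was not tested. In T cells Cd300lf was at 18.1 CPM in WT and 1.87 in CD169-DTR cells, and Axl at 24.2 and 16.2. In granulocytes Cd300lf was at 755 and 525 CPM. In choroid plexus cells 2 of 8 members were higher in WT, with Gas6 at 348 and 307 CPM. Pericytes, with 54 and 34 cells, held Axl at 295 and 270.3 CPM, while Sirpa was at 64.6 and 257 CPM, Mertk at 53.4 and 97.5, Stab1 at 16.9 and 62.0, Gas6 at 47.8 and 79.8, Pros1 at 163 and 186 and Mfge8 at 1169 and 1378. In CD169-DTR pericytes 7 of 34 cells held Sirpa and 4 held Stab1. There, 1 cell held 27 of 58 Sirpa UMIs and 1 cell held 8 of 14 Stab1 UMIs, so these values rest on few cells.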
